A study of Mus musculus with 10 samples.

Results

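The clones described here are the cDNA spots of the protein synthesis machinery: initiation, elongation and release factors, the kinases and binding proteins that regulate them, and the aminoacyl-tRNA synthetases. They were chosen by name. A clone was taken where the platform annotation gave it a single gene symbol beginning with Eif and a digit from 1 to 6, with Eef1 or Eef2 or with Eprs, or equal to Etf1 or to a synthetase symbol of the form Aars to Yars. This gave 161 of the 15600 clones on the array, for 77 genes, of which 36 had more than 1 clone. By role they were 80 clones of 38 initiation factor genes, 34 clones of 8 elongation factor genes, 2 clones of the release factor gene, 37 clones of 25 synthetase genes and 8 clones of 5 regulator genes. Of the other clones on the array, 5460 had no gene symbol and 274 had several, 2 of which held a symbol that fits (Eif1a and Eef2), and these were left out. Eef1e1, a protein of the multi-synthetase complex, was counted with the elongation factors by its name, and Eef2kmt with the regulators.

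Protein synthesis begins when initiation factors bring the initiator tRNA, the small ribosomal subunit and the capped mRNA together. Elongation factors then deliver each aminoacyl-tRNA to the ribosome and move the ribosome along, and the release factor ends the chain at a stop codon. The synthetases load each tRNA with its amino acid, in the cytosol or in mitochondria, and kinases of eIF2 and of the elongation factor eEF2 slow the process under stress. In kidney tubule cells, glucocorticoids act through a receptor that binds DNA and regulates transcription within hours.

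The study asked which genes respond early to dexamethasone, a synthetic glucocorticoid, in M-1 cells, a line from the mouse cortical collecting duct used here at passages 34 to 36. Confluent cells were kept in medium nominally free of steroids and then exposed for 3 h to 100 nM dexamethasone or to steroid-free medium alone, and their RNA was hybridised to spotted cDNA arrays with 2 spots per clone. There were 3 treated arrays, with RNA of treated cells in Cy5 and control RNA in Cy3, and 2 control pairs with control RNA in both dyes, so that 10 channels formed 5 pairs. In 5 of 7 control-titled channels the treatment field speaks of dexamethasone, and the dye given in the labelling field contradicts the title for 2 channels, so every direction below rests on the titles. No dye swap was made, so on each treated array the treated RNA was always in Cy5. The control pairs show each clone's dye ratio but lie on other arrays, so treatment and array set cannot be told apart. Nothing says that the replicates are separate cultures, so the p-values reflect spread between arrays, which may be technical. In RNA from whole cultures, fewer cells of a type and less RNA per cell cannot be told apart.

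The treated arrays carry values for only 3778, 3994 and 4002 spots, 12.1%, 12.8% and 12.8% of all, against 31022 and 30942 in the control pairs. The spots with values are those whose Cy5/Cy3 ratio lay outside an empty band around the centre of the array. A spot with a value on a treated array is called listed below, higher where its ratio lay above the band and lower where it lay below. Its centred log2 ratio was at least 0.29, 0.48 and 0.27 in size on treated arrays 1, 2 and 3, so a clone without a value has no measured ratio there, and ratios of listed clones are large by selection. For a background, the control pairs were given a listing of the same share of spots with the most outlying ratios. It took equal shares above and below within narrow ranges of intensity. That listing is therefore even by construction over all clones, and it could not show a lean shared by bright clones as a group. Median channel intensity ran from 327 to 1076 in the control pairs and from 355 to 880.5 on the treated arrays. Of 22 collecting duct markers 10 had a named clone, and 6 of these, Epcam, Krt7, Krt8, Krt18, Krt19 and Tfcp2l1, were above the median in all 4 control-pair channels. Of the fibroblast markers with a clone, Col1a2 and Dcn were above it, and none of the 3 leukocyte and endothelial or the 1 proximal tubule gene with a clone was.

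Elongation factor clones were listed higher more often than lower on treated arrays 1 and 2. On array 1, 24 of their 68 spots were listed higher and 1 lower, on array 2 12 higher and 3 lower, and on array 3 7 higher and 6 lower. Over the 3 arrays this made 43 higher and 10 lower, or 21.1% and 4.9% of their spots. With each array centred on the median of its ratios instead, the split was 35 higher and 18 lower. Initiation factors had 41 higher and 13 lower spots, 8.54% and 2.71%. Synthetases had 21 higher and 16 lower, 9.46% and 7.21%, and regulators 1 higher and 7 lower, 2.08% and 14.6%. Over all clones, 6.38% of spots were listed higher and 5.73% lower on array 1, 6.17% and 6.63% on array 2, and 6.53% and 6.3% on array 3, which made 6.36% and 6.22% over the 3 arrays. Initiation factors had more higher than lower spots on each of the 3 arrays. In the control pairs, where by construction 6.28% of all spots were listed higher and 6.28% lower, the counts were 8 higher and 11 lower for elongation factors, 15 and 17 for initiation factors, 20 and 5 for synthetases and 2 and 2 for regulators. In this order the shares of spots were 5.88% and 8.09%, 4.69% and 5.31%, 13.5% and 3.38%, and 6.25% and 6.25%. Here and below, treated counts span 3 arrays and control counts 2 pairs.

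**Figure D1:**
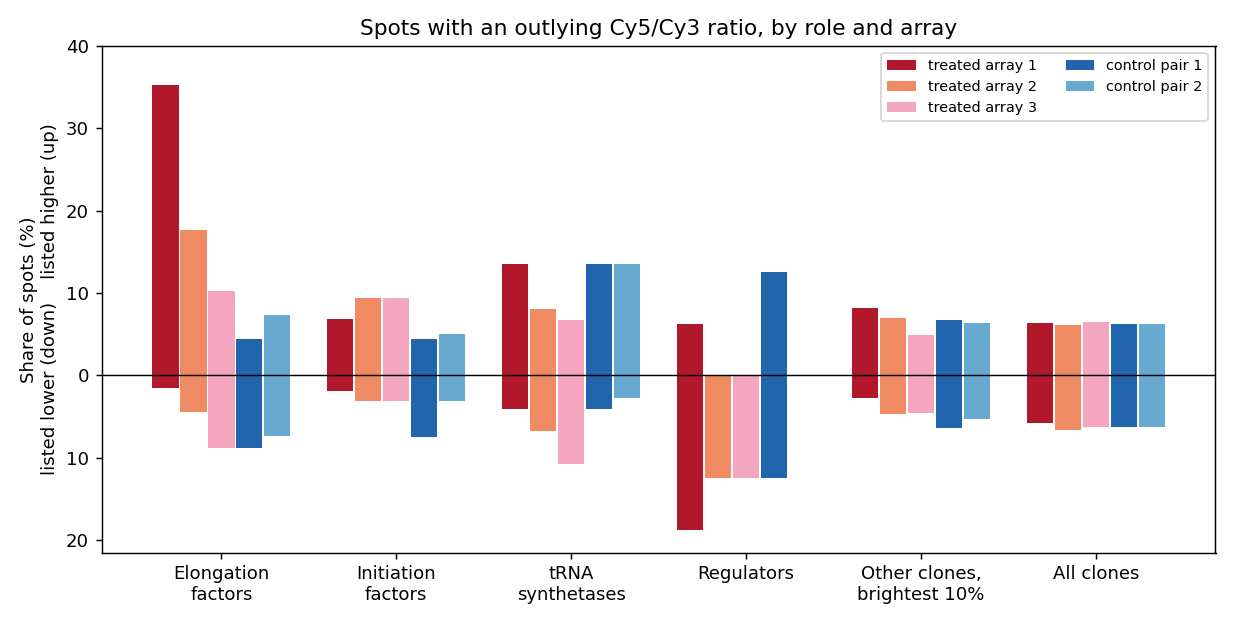
Share of spots listed higher (upward bars, % of spots) or lower (downward bars, %) for each role on the 3 treated arrays (reds) and the 2 control pairs (blues). The control pairs carry the listing that is even by construction. Beside the roles stand the clones outside the rule that were among the brightest 10%, and all clones. Elongation factors reach 35.3% higher on treated array 1 and 10.3% on treated array 3, while all clones stay near 6% in each direction.

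Spot brightness ran with this result. On the control pairs 29 of the 34 elongation clones lay among the brightest 10% of all clones, against 29 of 80 initiation clones, 3 of 37 synthetase clones and 0 of 8 regulator clones. Clones among the brightest 10% that are outside the rule also leaned upward on array 1, with 8.24% of spots higher and 2.7% lower. They had 7.01% and 4.71% on array 2 and 4.94% and 4.61% on array 3. The elongation clones among the brightest 10% had 39.7% higher and 0% lower on array 1, 20.7% and 1.72% on array 2, and 12.1% and 10.3% on array 3. The 5 dimmer elongation clones had 1 higher and 3 lower spots in all. The part of brightness in the elongation count was not tested. Initiation clones had 15 higher and 4 lower spots among the brightest 10% and 26 higher and 9 lower among the rest. Array 1 held 24 of the 43 higher elongation spots, and 19 higher and 9 lower remained without it.

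By clone, 86 of the 161 members, 53.4%, were listed on at least 1 treated array, close to the 51.8% of all clones. On 2 or 3 arrays 30 members were listed, 18.6% against 13.7%. Of these, 17 were higher on every array that listed them, 10.6% against 4.31%, and they comprised 9 elongation, 5 initiation and 3 synthetase clones. Another 6 were lower on every such array, 3.73% against 4.29%, and 7 were listed in both directions, 4.35% against 5.12%. The treated ratios of 16 of the 17 higher clones lay above both control pairs (9.94%, against 3.87% of all clones), and those of 4 of the 6 lower clones lay below both (2.48%, against 3.71%). Over all clones this held for 603 of 673 higher and 579 of 669 lower clones, because listed ratios are large by selection. The same selection enters wherever treated values are said below to lie outside the control values. All 6 members listed on 3 arrays were higher on each, 3.73% of members against 0.346% of all clones.

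**Figure D2:**
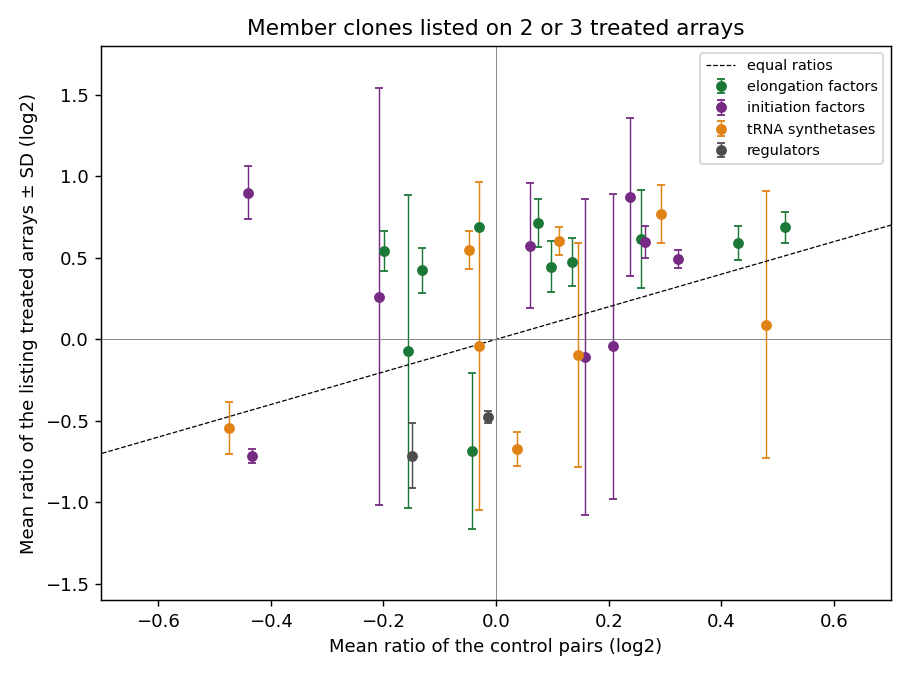
Mean centred log2 Cy5/Cy3 ratio of the treated arrays that listed a clone (vertical axis, bars are the SD over 2 or 3 arrays) against the mean of the 2 control pairs (horizontal axis, log2) for member clones listed on 2 or 3 treated arrays and valued in the control pairs, coloured by role. The dashed line marks equal ratios. The elongation clones lie above it except for Eef1a1 clone 7800, at -0.68, and bars near 1 in length belong to clones listed in both directions.

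The limma test of the 3 treated against the 2 control pairs needs a value in each of the 5 pairs and could be fitted on 213 clones. It called 0 clones higher (0%) and 1 lower (0.469%) at an adjusted p under 0.05, and 22 (10.3%) and 26 (12.2%) at an unadjusted p under 0.05. The 1 called clone is no member. Of the 6 member clones tested, 0 were called, and 2 had an unadjusted p under 0.05. These 6 entered the fit by being listed on all 3 treated arrays, each of them higher, so the sign of their treated ratios was set by the selection and their differences are given below as values. Among the 8056 clones valued in the control pairs and listed on any treated array, limma called 0 higher (0%) and 1 lower (0.0124%), with 1326 (16.5%) and 1277 (15.9%) at an unadjusted p under 0.05. Of these, 85 were members, 56 of them with a value on 1 treated array alone. For these 56 the spread came from the clone's own 2 control pairs, moderated over all clones of the fit, and no treated spread was measured. In that fit 0 members were called, with 8 higher and 9 lower at an unadjusted p under 0.05, and the lowest adjusted p of any member was 0.145. Clones entered these fits through the listing of large ratios, so their unadjusted p-values are not those of an unselected set. No member passed the adjusted threshold, and none is therefore described below as having risen or fallen.

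Among elongation factors, Eef1a1 encodes the factor that carries aminoacyl-tRNA to the ribosome and was represented by 17 clones. It had 13 spots higher and 0 lower on array 1, 5 and 1 on array 2, and 4 and 4 on array 3, against 2 higher and 8 lower over the control pairs. Of the 17 clones, 8 were listed only higher, 3 only lower and 6 not at all. Clones of this gene may also bind transcripts of its close relatives, which was not tested.

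Eef1a1 clone 3838 had log2 ratios of 0.38, 0.58 and 0.31 on treated arrays 1, 2 and 3 and of -0.23 and -0.03 in control pairs 1 and 2. All 3 treated values lay above both control values, and limma gave a difference of 0.55 ± 0.21 (SE, adjusted p = 0.208). Eef1a1 clone 12055 had 0.48, 0.62 and 0.32 on the treated arrays and 0.14 and 0.13 in the control pairs. Its groups did not overlap either, and limma gave 0.34 ± 0.21 (SE, adjusted p = 0.408), or 0.05 with median centring. Clone 3396 was listed on arrays 1 and 2, at 0.61 and 0.82, against 0.01 and 0.14 in the control pairs. Clone 3160 was listed on arrays 1 and 3, at 0.56 and 0.34, against 0.03 and 0.16. In both clones the listed treated values lay above the control values.

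Other Eef1a1 clones went the opposite way. Clone 7800 was lower on arrays 2 and 3, at -1.02 and -0.35, against -0.27 and 0.19 in the control pairs. Its Cy3 intensity was 602 on array 2 and 53358 on array 3, so the same clone was dim on the first and among the bright spots of the second. Clones 13619 and 14585 were lower on array 3 alone, at -0.37 and -0.41. Clone 13619 had control values of -0.52 and 0.03, and clone 14585 of 0.33 and -0.31, so the latter's treated value was below both while the former's lay between them. The clones of this gene also differed from each other where no treated RNA was present: their mean control-pair ratios ran from -0.55 to 0.34, with an SD of 0.27 over the 17 clones. Of the 6 clones listed on no treated array, 5 had both control ratios below 0.

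Eef1g encodes the gamma subunit of the complex that recharges eEF1A with GTP and had 7 clones. Their spots were 12 higher and 1 lower on the treated arrays (28.6% and 2.38%), and 6 higher and 1 lower over the control pairs (21.4% and 3.57%). The gene thus leaned upward in both. Eef1g clone 9325 had ratios of 0.48, 0.96 and 0.40 on treated arrays 1, 2 and 3 and of 0.33 and 0.19 in the control pairs. The groups did not overlap, and limma gave a difference of 0.36 ± 0.26 (SE, adjusted p = 0.484), or 0.18 without treated array 2. Eef1g clone 9650 had 0.68, 0.61 and 0.48 against 0.36 and 0.50. Its groups overlapped, and the difference was 0.16 ± 0.20 (SE, adjusted p = 0.761). Clone 10950 had 0.62 and 0.75 on arrays 1 and 2 against 0.44 and 0.59, and clone 1446 was 0.61 on array 1 and -0.75 on array 2, so its arrays disagreed in direction.

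Eef2 encodes the factor that moves the ribosome by a codon and had 4 clones. They had 6 higher spots on array 1, 3 on array 2 and 0 on array 3, where 2 were lower, against 0 higher and 1 lower over the control pairs. Clone 6751 had 0.69 on array 1 and 0.69 on array 2 against -0.07 and 0.01 in the control pairs. Clone 899 had 0.45 and 0.63 against -0.68 and 0.28, and clone 1224 had 0.61 on array 1 against -0.19 and 0.13. Clone 14923 was the 1 clone listed lower, at -0.56 on array 3, against -0.01 and -0.31. The remaining elongation genes were hardly listed. Eef1b2, another subunit of the exchange complex, had 1 clone at -0.64 on array 2, where its control values were already -0.48 and -0.60. Eif5a2 had a clone at -0.54 on array 1, and the single clones of Eif5a, Eef1d and Eef1e1 had no listed spot. Without the Eef1a1 clones, the elongation factors had 21 higher and 5 lower spots, the higher ones from Eef1g (12) and Eef2 (9) alone. By gene, 0 of the 8 were listed only higher, 2 only lower, 3 in both directions and 3 not at all. These are 0%, 25%, 37.5% and 37.5%, against 25.4%, 22.9%, 9.8% and 41.9% over all genes with a symbol. With the brightest clone of each gene alone, 4 spots were higher and 1 lower. The upward lean of the role thus rests on many clones of 3 genes.

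**Figure D3:**
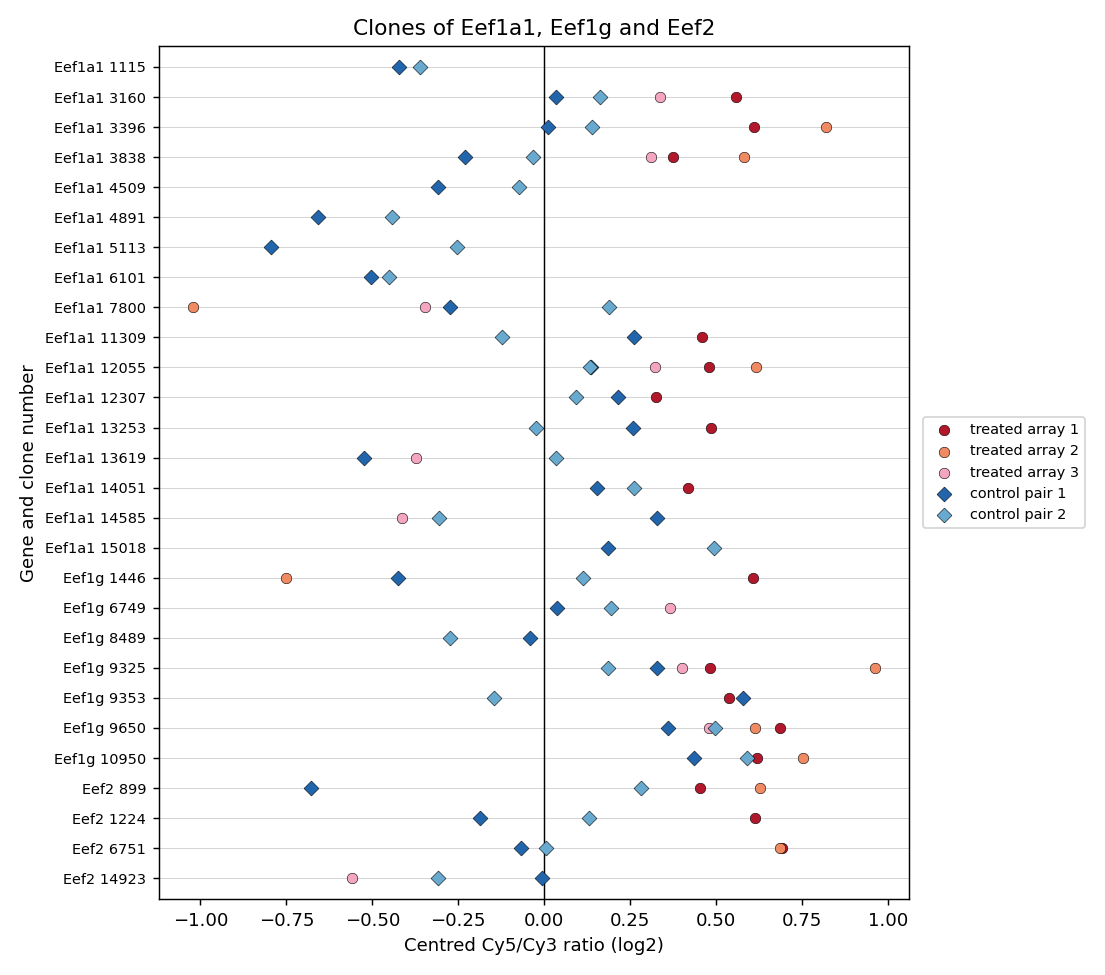
Centred log2 Cy5/Cy3 ratio (horizontal axis) of each clone of Eef1a1, Eef1g and Eef2, with circles for the treated arrays that listed it and diamonds for the 2 control pairs. Most circles of treated array 1 lie to the right of the diamonds of the same clone, Eef1a1 clone 7800 lies at -1.02 and -0.35, and 6 Eef1a1 clones have no circle.

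Initiation factors were listed higher in like numbers on each treated array, with 11, 15 and 15 spots higher and 3, 5 and 5 lower. By gene, 12 of the 38 were listed only higher, 5 only lower, 6 in both directions and 15 not at all, or 31.6%, 13.2%, 15.8% and 39.5%. Over all 7142 genes with a symbol the shares were 25.4%, 22.9%, 9.8% and 41.9%. The eIF4 factors, which recognise and unwind the capped end of the mRNA, had 18 higher and 4 lower spots over 23 clones. The 25 clones of eIF3, the large scaffold on the small ribosomal subunit, had 7 higher and 2 lower. The 10 clones of eIF2 subunits and related factors, which place the initiator tRNA, had 6 and 2. Those of eIF2B, which recharges eIF2 with GTP, had 3 and 1. The 8 clones of eIF1 and its relatives, which help find the start codon, had 2 and 1, and the 8 clones of eIF5, eIF5B and eIF6, which act when the ribosomal subunits join, had 5 and 3. In this order higher spots made 13.0%, 4.67%, 10.0%, 8.33%, 4.17% and 10.4% of spots, against 6.36% over all clones. Lower spots made 2.9%, 1.33%, 3.33%, 2.78%, 2.08% and 6.25%, against 6.22%. Over the control pairs the higher and lower spots were 4 and 1, 2 and 6, 2 and 6, 2 and 0, 5 and 0, and 0 and 4.

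Within the eIF4 factors, the listed clones of Eif4a1 and Eif4b were all higher. Eif4a1 encodes the helicase, and its 4 clones had 7 higher and 0 lower spots, none of them on array 1, against 0 and 0 in the control pairs. Clone 5204 had 0.85 and 0.30 on arrays 2 and 3 against 0.13 and -0.01 in the control pairs. Clones 5529 and 6829 had 0.92 and 0.78 on array 2 against control values of 0.23 and -0.16 and of 0.08 and 0.23. Each channel was also scaled to its median over the clones valued in every pair. Relative to the control arrays, clones 5204, 5529 and 6829 were then at -0.67, -1.43 and -2.88 in Cy3. In Cy5 they were at -0.30, -0.41 and -2.30. Their higher ratios thus came with lower scaled intensity in both dyes, and the cause was not tested. Eif4b encodes a cofactor of that helicase, and its 4 clones also had 7 higher and 0 lower spots, against 1 and 0. Eif4b clone 5423 had 0.53, 0.56 and 0.71 on treated arrays 1, 2 and 3 against 0.45 and 0.08. The groups did not overlap, and limma gave 0.33 ± 0.22 (SE, adjusted p = 0.436), or 0.15 without control pair 2 and 0.52 without control pair 1. Clone 12443 had 0.90 on array 2 and clone 14236 0.62 on array 3.

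Other eIF4 members were mixed. Eif4e, which encodes the cap-binding protein, had 4 clones with 0 higher spots and 1 lower, clone 13997 at -0.65 on array 2. Eif4g2, a relative of the eIF4G scaffold, had clone 3292 at 0.53 and 1.22 on arrays 1 and 2 against control values of 0.36 and 0.11, while its clone 14590 was -1.20 on array 1. The other 3 Eif4g2 clones were not listed. Eif4g3, a scaffold of the same family, had a clone at 0.58 on array 1 and -0.80 on array 2.

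Eif2s2 encodes the beta subunit of eIF2. Eif2s2 clone 7496 had the widest gap between treated and control ratios among the member clones listed on 2 or 3 arrays, with 1.02 and 0.79 on arrays 1 and 2 against -0.72 and -0.16 in the control pairs. In the fit of the 2131 clones listed on at least 2 treated arrays, limma gave it 1.34 ± 0.29 (SE, adjusted p = 0.187). That fit called 0 clones higher (0%) and 0 lower (0%), with 287 (13.5%) and 263 (12.3%) at an unadjusted p under 0.05. Of its 29 members 5 were higher and 0 lower at an unadjusted p under 0.05. They too entered through the listing of large ratios. Of the 30 members listed on 2 or 3 arrays 17 were only higher and 6 only lower, so that split follows the selection and adds no support. The control values enter that gap: 6 Eif2s2 spots were listed lower in control pair 1, and 2 were listed higher in control pair 2. Scaled as for Eif4a1, clone 7496 was at -1.27 in Cy3 and -0.42 in Cy5 relative to the control arrays. Eif2s2 clone 1366 was 0.58 on array 1 against -0.66 and 0.64, so it lay between its control values, and the other 2 Eif2s2 clones were not listed.

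Eif3a, which encodes the largest eIF3 subunit, had 8 clones with 4 higher spots and 1 lower. Clone 14043 had both spots listed on array 1, at a mean of 0.80, and clones 6205 and 10409 had 0.44 and 0.47 on array 3. Clone 13010 was -0.77 on array 2, and 4 clones were not listed. Eif5, which encodes the factor that triggers GTP hydrolysis by eIF2, had clone 3727 at 0.53 and 0.46 on arrays 1 and 3 against 0.23 and 0.41, and clone 2614 at 0.62 on array 1. Eif5b, the factor that joins the ribosomal subunits, had clone 1740 at -0.74 and -0.68 on arrays 2 and 3. Its control pair 1 value was -0.83 and its control pair 2 value -0.04, so the treated values did not leave the control range. Eif6, which keeps the large subunit apart until it is mature, had both spots of clone 11878 higher on array 2, at a mean of 0.86. Eif1a had 1 of its 4 clones listed, at 0.56 on array 2, and Eif2b1 had no listed spot. Eif2b5, the catalytic subunit of eIF2B, and Eif2d, a factor that can also place tRNA, each had a clone listed in opposite directions on 2 arrays, at 1.17 and -0.64 and at -0.71 and 0.62.

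**Figure D4:**
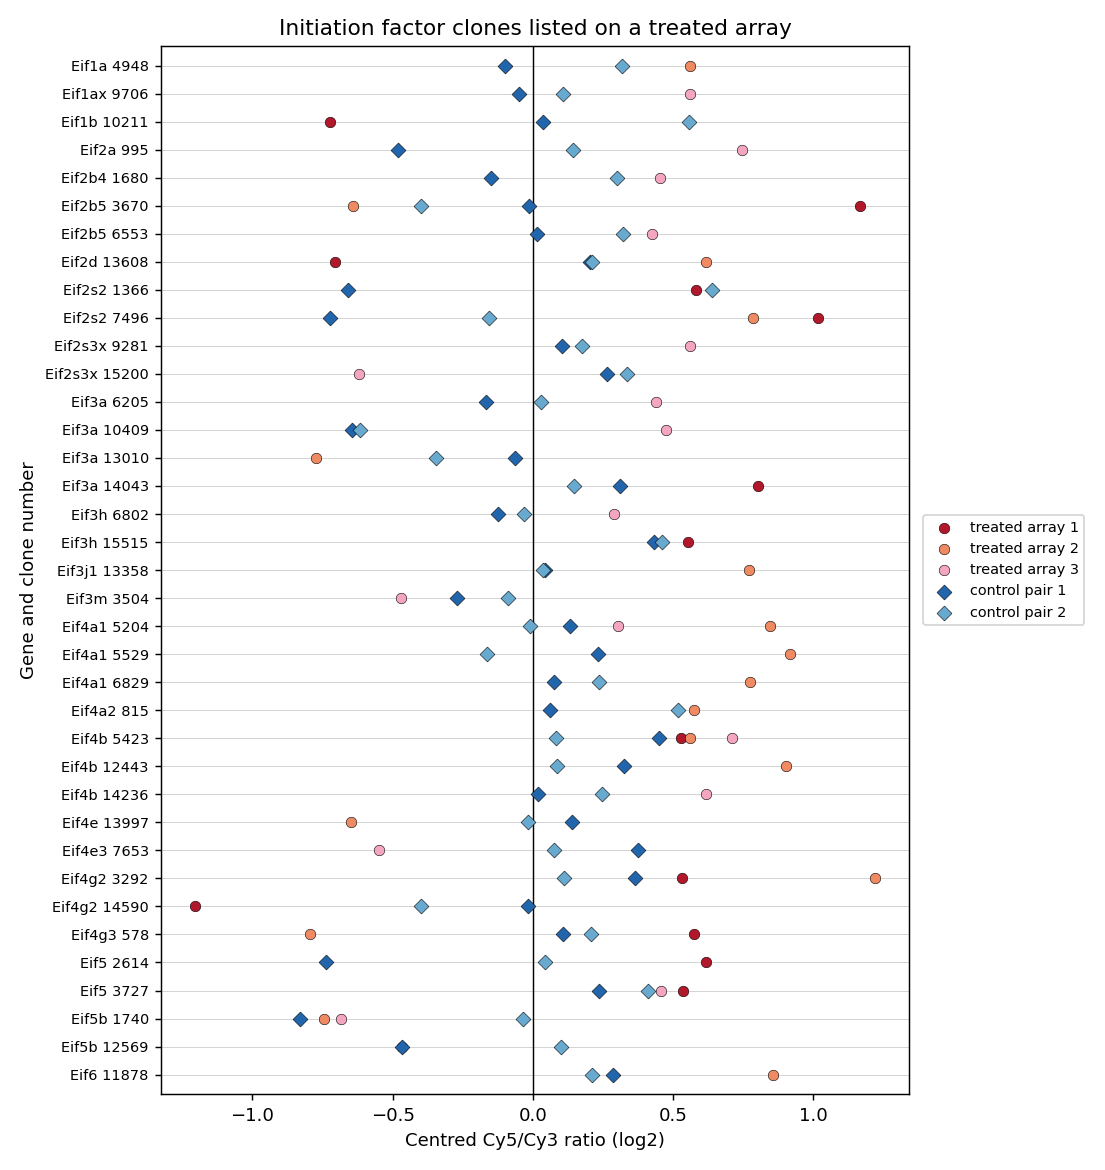
Centred log2 Cy5/Cy3 ratio (horizontal axis) of each initiation factor clone listed on a treated array, with circles for treated arrays and diamonds for the 2 control pairs. The circles of Eif4a1 and Eif4b lie between 0.30 and 0.92, and those of Eif2b5, Eif2d and Eif4g3 lie on both sides of 0.

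Regulators were listed lower more often than higher, on 8 clones. Eif2ak1 encodes a kinase of eIF2 known for its response to heme, and its clone 10007 had -0.50 and -0.45 on arrays 1 and 3 against 0.04 and -0.07 in the control pairs. Both treated values lay below both control values, and limma on the clones listed on at least 2 arrays gave -0.46 ± 0.20 (SE, adjusted p = 0.229). Eif4enif1 encodes the protein that carries eIF4E into the nucleus. Its clone 2672 had -0.85 and -0.57 on arrays 1 and 2 against -0.56 and 0.26, and its clone 161 had -0.66 on array 2. Eef2k encodes the kinase that inhibits eEF2, and its clone 6021 had -0.75 on array 1 against control values of 0.77 and 0.06 that stood far apart. Eif2ak4 encodes the eIF2 kinase that senses uncharged tRNA, and clone 1557 had 0.71 on array 1 against 0.06 and 0.29. The release factor gene Etf1 had 2 clones with no listed spot.

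Synthetase clones had no common direction over the 3 arrays. They had 10 higher and 3 lower spots on array 1, 6 and 5 on array 2, and 5 and 8 on array 3. In each control pair 10 spots were higher, with 3 and 2 lower, so a lean to Cy5 was seen without treated RNA. Of the 25 genes, 9 were listed only higher, 5 only lower, 4 in both directions and 7 not at all. These are 36%, 20%, 16% and 28%, against 25.4%, 22.9%, 9.8% and 41.9% over all genes with a symbol. The 11 clones of mitochondrial enzymes had 3 higher and 4 lower spots (4.55% and 6.06%), and the others 18 and 12 (11.5% and 7.69%). Over all clones the shares were 6.36% and 6.22%. Over the control pairs the mitochondrial clones had 4 higher and 1 lower (9.09% and 2.27%), and the others 16 and 4 (15.4% and 3.85%).

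Sars, which encodes the cytosolic seryl-tRNA synthetase, had 4 clones that differed in direction, with 5 higher and 5 lower spots. Sars clone 4245 had 0.60, 0.63 and 0.42 on treated arrays 1, 2 and 3 against 0.05 and -0.14 in the control pairs. The groups did not overlap, and limma gave 0.60 ± 0.21 (SE, adjusted p = 0.208), the largest difference among the 6 members in that fit. When the Cy5 channels alone were compared, each scaled to its median over the 213 clones, the same clone was at -0.52, with its scaled Cy3 intensity at -0.94 relative to the control arrays. Clone 3543 was lower on arrays 1 and 3, at -0.66 and -0.43, and also in the control pairs, at -0.66 and -0.29. Clone 2040 had 0.85 and clone 11071 -0.64 on the same array 2. Sars2, the mitochondrial counterpart, had clone 12117 at -0.75 and -0.60 on arrays 1 and 2 against 0.31 and -0.24, so both treated values lay below both control values.

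Other synthetases were listed on 2 arrays in 1 clone each. Aars, for alanine, had 0.54 and 0.66 on arrays 1 and 2 against 0.18 and 0.04, and Yars, for tyrosine, had 0.64 and 0.90 on arrays 2 and 3 against 0.33 and 0.25. Both lay above their control values. Limma on the clones listed on at least 2 arrays gave an adjusted p of 0.222 for Aars and 0.243 for Yars. Eprs encodes the joint enzyme for glutamate and proline. Its clone 15580 had both spots higher on array 1, at a mean of 0.67, and both lower on array 3, at -0.75, with -0.03 in control pair 1 and no value in control pair 2. Gars, for glycine, had 0.67 on array 1 and -0.49 on array 3, and Qars, for glutamine, -0.58 on array 2 and 0.39 on array 3, so these arrays also disagreed. The single clone of Wars, for tryptophan, was -0.50 on array 3 alone.

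**Figure D5:**
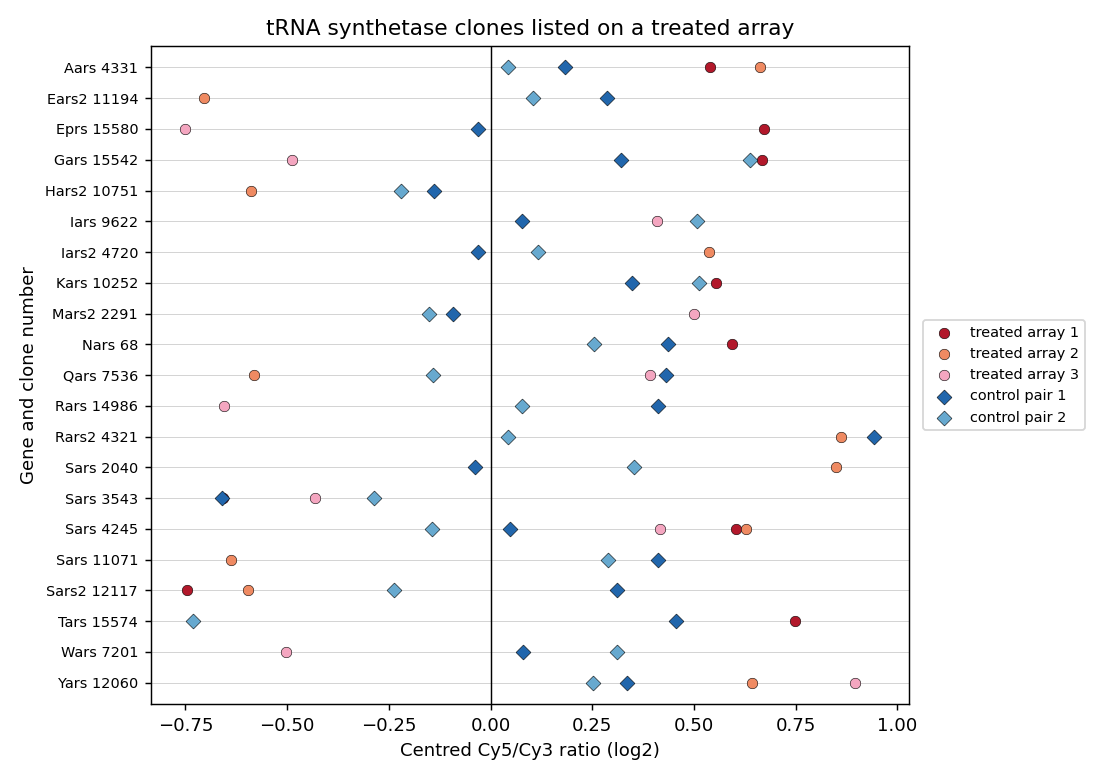
Centred log2 Cy5/Cy3 ratio (horizontal axis) of each synthetase clone listed on a treated array, with circles for treated arrays and diamonds for the 2 control pairs. The circles of Sars clone 4245, Aars and Yars lie to the right of their diamonds, those of Sars2 to the left, and those of Eprs, Gars and Qars on both sides of 0.

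Promoters of the members were read from RefSeq (build GRCm38.p6), as the 250 bases before to the 50 bases after each gene's start. Of the 77 genes 59 had an entry, with 74 promoters. Both strands were searched for 3 motifs. The full glucocorticoid response element (AGAACA, 3 bases of any kind, TGTTCT) was in 0 of the 74 promoters and in 0.00913% of all 32851, and its core ACANNNTGT, which the full element contains, was in 1 and in 6.85%. The C/EBP-ATF response element TGATGNAA, bound by the amino acid response factor ATF4, was in 7 of the 74 (9.46%) against 3.97% of all. Among synthetase promoters 5 of 18 held it, and all 5 belong to cytosolic enzymes. The windows are shown because they are what these 5 genes share beyond the rule, with the motif in capitals. Each is printed 5′ to 3′ on the gene's strand, where the motif reads as TGATGNAA or as its reverse complement.
Aars, chr8:111033705-111033762, + strand: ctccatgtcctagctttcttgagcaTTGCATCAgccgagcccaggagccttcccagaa
Aars, chr8:111033842-111033871, + strand: cgggtcactTTTCATCAgagcgctctgatt
Gars, chr6:55037946-55038000, + strand: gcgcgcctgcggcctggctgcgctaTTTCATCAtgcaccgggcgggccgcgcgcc
Iars, chr13:49682130-49682159, + strand: gtcagtaTTGCATCAcctccagacgcggaa
Tars, chr15:11399659-11399698, - strand: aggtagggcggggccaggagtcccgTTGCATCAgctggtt
Yars, chr4:129189903-129189932, + strand: agcTGATGCAAcccgacgggactagcgtga
The single promoter with the glucocorticoid core was that of Eif5a, whose clone was not listed on any treated array.
Eif5a, chr11:69921959-69922010, - strand: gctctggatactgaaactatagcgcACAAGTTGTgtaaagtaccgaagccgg

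The 5 synthetase genes with the element had 1 clone each, and over the treated arrays these clones were listed higher 7 times and lower 1 time, the lower listing being that of Gars on array 3. Besides Aars, Yars and Gars these were Iars at 0.41 on array 3 and Tars at 0.75 on array 1. Their mean control-pair ratios ran from -0.14 to 0.48 with a median of 0.29, and Iars lay within its control values of 0.08 and 0.51. The 13 synthetase genes with a promoter entry and no such element had 21 clones, listed higher 10 times and lower 8 times. The element was also in the promoters of Eef2k and Eif2s3x, whose 4 clones were listed higher 1 time and lower 2 times: Eef2k clone 6021 at -0.75 on array 1, and Eif2s3x clones 15200 at -0.62 and 9281 at 0.56, both on array 3. All 7 genes with the element thus had 8 higher and 3 lower listings, against 57 and 30 for the 52 member genes with a promoter entry and no such element. The division was made after the values were seen, and a match is a description of these letters, not of a bound site.

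Pairs of member clones of 1 gene, most of them of elongation factors, were more often listed in the same direction than such pairs over the array at large. Of 89 pairs of member clones of 1 gene listed on the same treated array, 68 had the same direction (76.4%), against 59.8% of 662 pairs over all genes. Elongation factors made 72 of the 89 pairs, 57 of them with the same direction (79.2%). Initiation factors made 11, of which 9 had the same direction, and among synthetases 1 of 5 pairs did. Without Eef1a1 the share was 77.5% of 40 pairs, which still include those of Eef1g, with 16 of 19 in the same direction. Where both spots of a member clone were listed they had the same direction in 30 of 30 cases, against 88.3% of 1338 over all clones. A member clone listed on a pair of treated arrays had the same direction on both in 35 of 42 cases (83.3%), against 65% over all clones, with 18 of 19 for elongation factors, 8 of 11 for initiation factors and 7 of 10 for synthetases. Pairs share clones and arrays, so these shares are descriptions.

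Genes that act with the members but lie outside the rule were counted in lists. Treated counts here span 3 arrays and control counts 2 pairs, with 2 spots per clone on each. Over all clones 6.36% of spots were higher and 6.22% lower on the treated arrays, and 6.28% each in the control pairs. Translation partners, among them release, recycling and poly(A)-binding factors, had 24 genes with 40 clones. They had 18 higher and 9 lower spots on the treated arrays, against 17 and 7 over the control pairs. Genes of the mTORC1 and 4E-BP axis, which controls eIF4E, had 9 genes with 12 clones and 3 higher and 3 lower spots, against 4 and 4. ATF4 and amino acid response genes had 13 genes with 19 clones and 11 higher and 4 lower spots, against 8 and 4 in the control pairs. The limma fit of clones valued in all 5 pairs held 1 translation partner clone, which was not called, and 0 clones of the other lists. The fit of clones listed on any treated array held 17, 6 and 11 clones of these lists, in this order, and called 0. Aimp2, a scaffold of the multi-synthetase complex, had 0.58 and 0.62 on arrays 2 and 3 against 0.63 and 0.20. Psph, an enzyme of serine synthesis, had 0.72 and 0.46 on arrays 2 and 3 against -0.08 and 0.40, and Mthfd2, an enzyme of mitochondrial folate metabolism, had 0.63 and 0.63 on arrays 1 and 2 against 0.52 and 0.15. Mtif2, Farsb, Dph5 and Gspt1 each had a clone listed on 2 or 3 arrays in opposite directions.

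With control RNA in both dyes, limma of the mean Cy5/Cy3 ratio against 0 over 15561 clones called 5 higher (0.0321%) and 45 lower (0.289%), and 565 (3.63%) and 785 (5.04%) at an unadjusted p under 0.05. Of the 160 members valued in both control pairs 0 were called, 9 were higher and 11 lower at an unadjusted p under 0.05, and the smallest adjusted p was 0.107. Their median control ratio was 0.07 on the log2 scale against -0.0005 over all clones. Elongation factors had medians of 0.00 and 0.02 in control pairs 1 and 2, initiation factors 0.05 and 0.06, and synthetases 0.15 and 0.11.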

How the data were processed

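The values the authors deposited are linear whole-number intensities for each channel; per the series' design text they are mean spot intensities read in Imagene 4.0 from ScanArray 5000 images. The rule that listed spots on the treated arrays is not stated in the sources used here, nor is any background correction or normalisation. Gene symbols came from the platform annotation.

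Titles paired the channels, by control number or array number. Log2 Cy5/Cy3 ratios were centred by lowess on intensity in the control pairs (statsmodels 0.14.6, span 0.2) and on the midpoint of the empty band on the treated arrays (windows of 150 spots, smoothing span 0.3), because a fit through the listed spots lacks the middle of the distribution. The 2 spots of a clone were averaged where both had a value. Limma 3.58.1 in R 4.3.3 compared treated with control pairs (two-sided, Benjamini-Hochberg, adjusted p under 0.05). It was also run on simulated data truncated by the balanced listing used for the control pairs, which need not match the rule of the treated arrays. No error rate is drawn from that run here. Listing counts carry no test. The number of arrays limits the precision. Alternatives covered centring, filters, single channels, the pairing and each left-out replicate.

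The members and lists were chosen with earlier results of these data known. Genes were named where a clone had values in all 5 pairs or on 2 or 3 treated arrays, where a gene had at least 4 clones, or from a set of key factors and kinases; other genes are examples chosen after their values were seen. Key factors with no clone of their own here are not analysed here.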

Additional observations from a re-analysis of the deposited data

How the results depend on the processing

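The count of clones called by limma among the 213 valued in all 5 pairs, 0 higher and 1 lower, kept within 0 to 1 lower when each array was left out, and became 3 higher and 3 lower on the 8 clones with both spots listed everywhere, 3 higher and 0 lower with the Cy5 channels alone, 0 lower on the clones listed on at least 2 treated arrays, and 0 lower when the 10 channels were fitted with no replicate block. A random replicate block for the pair gave 1 lower, and 0 members were called in these fits, of which the one on 8 clones held no member. The dye test of the control pairs went from 5 higher and 45 lower to 0 and 0 with median centring. None of the 6 named clones passed the threshold in any fit. In 81 of their 84 alternatives the direction was kept, but these clones entered by being listed higher on all 3 treated arrays. Fits that changed only the set of clones returned the same difference for each of them. The count of kept directions therefore adds no support. In other fits sizes moved. With median centring Eef1a1 clone 3838 went from 0.55 to 0.28, Eef1a1 clone 12055 from 0.34 to 0.05, Eef1g clone 9325 from 0.36 to 0.14 and Sars clone 4245 from 0.60 to 0.28, and with the Cy5 channels alone Eef1a1 clone 3838 was at 1.43. Eef1g clone 9650 turned to -0.10 with median centring and -0.57 with the Cy5 channels alone, and Sars clone 4245 to -0.52 with the latter. The share higher among listed member spots, 69.7%, was 54.5% without the brightest 10% of clones, an alternative chosen after seeing the data. It was 56.2% in the control pairs, whose listing is even by construction over all clones. For elongation factors 81.1% became 66% with median centring, 25% without the brightest 10% (4 spots) and 42.1% in the control pairs, with 67.9% to 90% when each treated array was left out. For initiation factors 75.9% became 70.4% with median centring, 100% of 14 spots with both spots listed one way, 69.2% with the brightest clone per gene and 46.9% in the control pairs, and for synthetases 56.8% became 80% in the control pairs. The cause of these shifts was not tested.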
